A study of Arabidopsis thaliana with 6 samples.

Results

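NSRa (AT1G76940) and NSRb (AT1G21320) are the Arabidopsis thaliana genes that carry the insertions of the nsra/b double mutant. They were taken by their identifiers as 2 of the 44200 features of the deposited count table, and both were among the 21606 features tested. The study compared Col-0, the wild type, with nsra/b, which combines a T-DNA insertion from the SALK collection in NSRa and one from the SAIL collection in NSRb in the Col-0 background. Each genotype gave 3 libraries of polyadenylated RNA from whole plantlets grown on solid half-strength MS medium in long days. The labels state that plantlets aged 14 days were moved to fresh mock medium, with no hormone, and collected 24 h later at 15 days, with reads of 100 nt. The study's methods give a younger age and longer reads, and neither entered a calculation.

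Nuclear speckle RNA-binding proteins (NSRs) are plant proteins with an RNA recognition motif, the fold by which many splicing factors hold single-stranded RNA. Speckles are bodies in the nucleus where splicing factors gather, and NSRs found there influence how introns are removed from their target RNAs. ASCO, a long non-coding RNA, is one of the RNAs they bind, and they take part in root branching under auxin.

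Both genes lie on the minus strand of chromosome 1 in the TAIR10.1 annotation. NSRa covers chr1:28902318-28904420, a span of 2103 nt with 3 annotated transcripts, 1506 nt of exon and a coding sequence of 702 nt for 233 residues. NSRb covers chr1:7462327-7466164, a span of 3838 nt with 5 annotated transcripts, 2718 nt of exon and a longest coding sequence of 1266 nt for 421 residues. The proteins were 61.7% identical over 209 aligned residues. The longest coding sequence of each gene has 6 coding segments, and the 4th and 5th segments have the same lengths in both genes, 62 and 82 nt. These segments are shown because they allow the genes to be compared base by base. All are coding exon sequence read 5′ to 3′ on the minus strand, taken from the RefSeq TAIR10.1 genome, and capitals mark the bases that differ between the genes. The 62-nt segment lies at chr1:28903315-28903376 in NSRa and chr1:7463320-7463381 in NSRb, with 54 matching and 8 differing bases.
NSRa 62-nt segment: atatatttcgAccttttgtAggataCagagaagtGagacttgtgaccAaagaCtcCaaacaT
NSRb 62-nt segment: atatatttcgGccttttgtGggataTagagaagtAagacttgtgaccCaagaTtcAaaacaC
The 82-nt segment lies at chr1:28903124-28903205 in NSRa and chr1:7463141-7463222 in NSRb, with 69 matching and 13 differing bases.
NSRa 82-nt segment: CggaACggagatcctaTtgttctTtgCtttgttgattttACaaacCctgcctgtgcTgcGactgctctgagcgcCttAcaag
NSRb 82-nt segment: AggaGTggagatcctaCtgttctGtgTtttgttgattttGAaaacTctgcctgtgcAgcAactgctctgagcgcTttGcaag
The longest stretch that the transcribed strands of NSRa and NSRb share exactly was 29 nt, and no stretch of NSRa longer than 27 nt recurred in another annotated gene. A read of 100 nt from one gene therefore had no exact copy in the other.

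**Figure D1:**
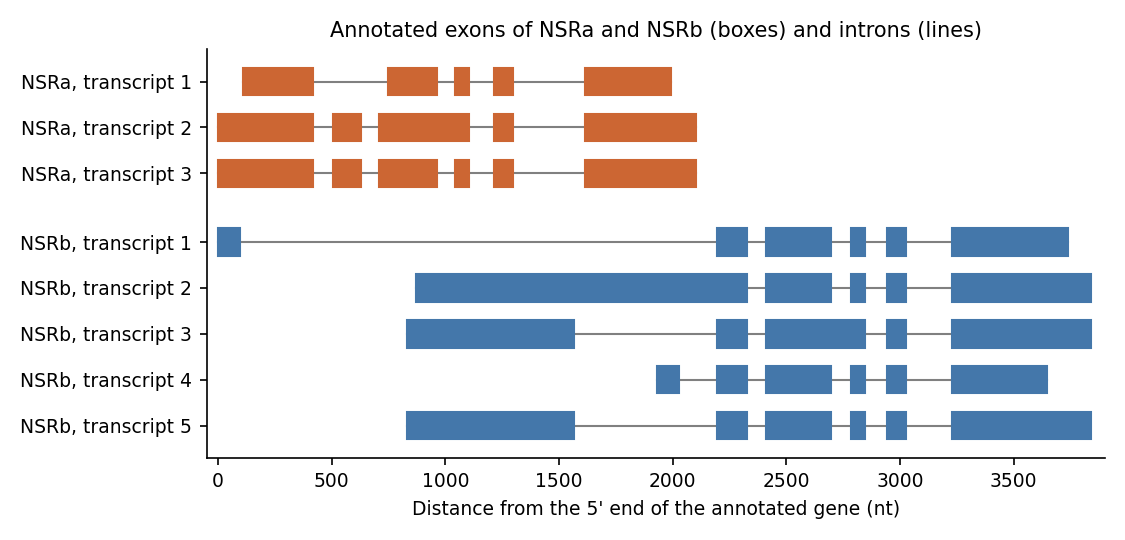
Annotated exons (boxes) and introns (lines) of the 3 NSRa transcripts and the 5 NSRb transcripts, drawn to scale against the distance in nt from the 5′ end of each annotated gene. NSRb spans 3838 nt against 2103 nt for NSRa, and its transcripts differ mainly in their first exon.

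The counts per library ran from 25936176 to 32578330, so that 1 count stood for 0.0308 to 0.0384 CPM, the count relative to the library's total after scaling with edgeR's TMM factor. Within a genotype, pairs of libraries differed beyond sampling noise (chi-square per degree of freedom 1.37 to 1.93), so all 6 were kept as separate samples. The study describes them as biological replicates, and these values cannot show how independently the plants were grown. The common biological coefficient of variation, the spread between replicates beyond counting error, was 0.0203. The standard errors and p-values of edgeR rest on the spread between these libraries. With that coefficient fixed at 0.1 and the likelihood ratio test, 203 features were called instead of 1914. The shoot markers RBCS1A, LHCB1.3 and GLK1 together gave between 22800 and 24100 CPM in Col-0 and between 21100 and 21600 CPM in the libraries labelled nsra/b, and 4 root hair and root markers summed to 23.8 to 25.4 CPM over all libraries, so markers of both organs were detected. The 5 floral markers together gave between 9.77 and 10.5 CPM in Col-0 and between 6.41 and 6.93 CPM in the libraries labelled nsra/b, nearly all of it from PISTILLATA, while APETALA1 had at most 1 count in any library. PISTILLATA, the only floral marker tested, was called lower (log2 fold change −0.64, adjusted p 2.66e-07 by edgeR). Of the shoot markers, LHCB1.3 was called lower (log2 fold change −0.21, adjusted p 2.81e-08 by edgeR), while RBCS1A and GLK1 were not called (−0.02 each, adjusted p 0.675 and 0.694 by edgeR). The part of the lower shoot and floral sums in the results for NSRa and NSRb was not tested. In such bulk samples, fewer cells of a type and less RNA per cell cannot be told apart.

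NSRa rose in the libraries labelled nsra/b. The Col-0 libraries held 396, 519 and 441 counts of it, and the libraries labelled nsra/b held 4987, 5898 and 5577. These were 14.7, 16.0 and 14.5 CPM against 192, 192 and 186 CPM. The groups lay far apart, since the lowest library labelled nsra/b was 11.6 times the highest Col-0 library, and the spread within each group was small, with coefficients of variation of 5.28% and 1.81%. The mean was 15.1 ± 0.797 CPM (SD, n = 3) in Col-0 and 189.9 ± 3.45 CPM (SD, n = 3) in the libraries labelled nsra/b. The log2 fold change was 3.65 (SE 0.0373), a 12.6-fold difference with a 95% interval of 11.9 to 13.2, at a Benjamini-Hochberg adjusted p of 4.27e-37 over all tested features by the quasi-likelihood test of edgeR. DESeq2 gave a larger standard error, 0.0509, and an interval of 11.7 to 13.4.

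NSRb also rose, from a low level. The Col-0 libraries held 17, 25 and 25 counts of it, and the libraries labelled nsra/b held 81, 78 and 88. These were 0.631, 0.770 and 0.824 CPM against 3.11, 2.54 and 2.93 CPM. The groups did not overlap, and counting error alone did not bridge them, since the exact 95% Poisson interval of the highest Col-0 library ended at 1.22 CPM and that of the lowest library labelled nsra/b began at 2.01 CPM. The mean was 0.742 ± 0.0993 CPM (SD, n = 3) in Col-0 and 2.86 ± 0.294 CPM (SD, n = 3) in the libraries labelled nsra/b. The log2 fold change was 1.93 (SE 0.184), a 3.80-fold difference with a 95% interval of 2.96 to 4.88, at a Benjamini-Hochberg adjusted p of 1.51e-09 by the same edgeR test. With DESeq2 the standard error was 0.268 and the interval 2.66 to 5.51.

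Both members were thus called higher, whereas 1140 of the 21606 tested features (5.28%) were called higher and 774 (3.58%) lower at an adjusted p under 0.01. Both also had groups that did not overlap with the libraries labelled nsra/b on top, as had 3434 tested features (15.9%), while 3048 (14.1%) had non-overlapping groups in the other direction. NSRa had the smallest p of all tested features and NSRb ranked 92nd. By log2 fold change they were the 3rd and the 7th of the 1140 features called higher, and 95 called features in all differed by 1 or more on the log2 scale, in either direction. The median log2 fold change of all tested features was 0.00.

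**Figure D2:**
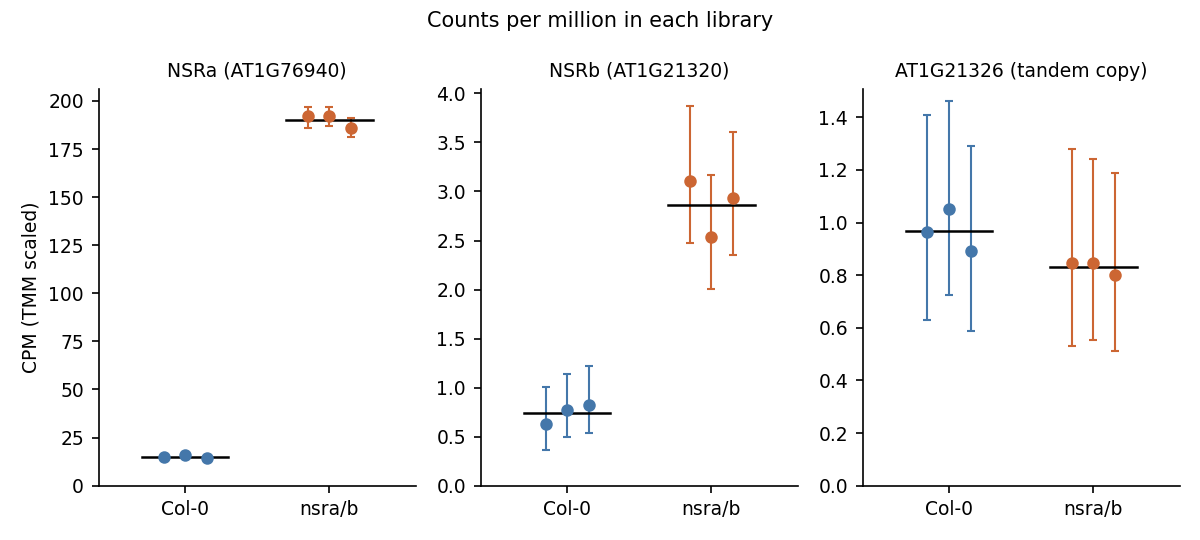
CPM of NSRa, NSRb and AT1G21326, the neighbour that holds a near-identical copy of part of NSRb (marked tandem copy), in each of the 3 Col-0 libraries and the 3 libraries labelled nsra/b, on linear axes from 0. Points are libraries with exact 95% Poisson intervals, which cover counting error only, and lines are group means. The libraries labelled nsra/b sit at 186 to 192 CPM for NSRa and 2.54 to 3.11 CPM for NSRb. Every Col-0 library lies below them, at 14.5 to 16.0 and 0.631 to 0.824 CPM. For AT1G21326 the points of the libraries labelled nsra/b lie slightly below those of Col-0, and the intervals overlap.

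**Figure D3:**
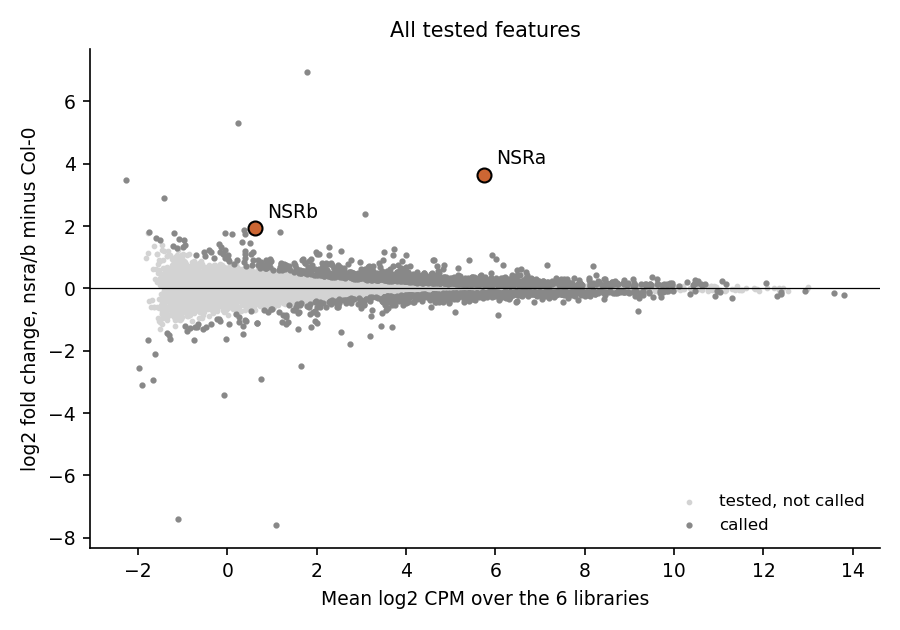
Log2 fold change (nsra/b minus Col-0) against mean log2 CPM over the 6 libraries for the 21606 tested features, with called features in dark grey, the others in light grey and NSRa and NSRb in orange. NSRa lies at 3.65 and NSRb at 1.93, the 3rd and the 7th highest.

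The counts of both targeted genes were higher in the libraries labelled as the mutant, and counts over whole genes cannot by themselves check such labels. The directions given throughout therefore rest on the labels. The values are counts over whole genes, without position along the gene, so they cannot show on which side of an insertion the reads lay, whether a transcript was intact, or whether it was translated. The positions of the insertions within the genes are not given in the sources used here. Loci that the study lists as antisense to the genes had hardly any reads. The locus antisense to NSRa (XLOC_005241) was read 0, 0 and 0 times in Col-0 and 0, 1 and 0 times in the libraries labelled nsra/b. The locus antisense to NSRb (XLOC_001474) had 1, 0 and 1 counts and 1, 0 and 0 counts. All of these lay under the floor of 3 counts, neither locus was tested, and a difference between genotypes was not detectable at this depth.

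NSRb has a neighbour with near-identical sequence over part of the gene. The gene 2600 nt away on the same strand, AT1G21326, encodes a VQ motif-containing protein, VQ being a short motif of plant WRKY-binding proteins. Its protein was 85.0% identical to the longest form of NSRb over 220 residues, and it was the only other protein with an expectation value under 1e-10 against either NSR. The genes shared an exact stretch of 191 nt, at chr1:7464469-7464659 in NSRb, of which 60 nt code for protein in NSRb. These 60 nt lie in the first coding segment of the longest form, of 601 nt, outside the segments compared with NSRa above. Where the 220 residues lie in NSRb was not recorded, so whether they reach its RNA recognition motif was not tested. Of the 2910 windows of 100 nt in the exons of NSRb, 216 (7.42%) also occurred in AT1G21326, and reads from them could be counted for either gene. The counts of AT1G21326 were 26, 34 and 27 in Col-0 and 22, 26 and 24 in the libraries labelled nsra/b. Its log2 fold change was −0.22 (SE 0.226) and did not pass the test, at an adjusted p of 0.585 by edgeR. Its groups did not overlap, with 0.89 to 1.05 CPM in Col-0 and 0.799 to 0.846 CPM in the libraries labelled nsra/b. Groups lay apart in that direction for 14.1% of all tested features. When the counts of both genes were summed, an alternative chosen after seeing the data, the sums were 43, 59 and 52 in Col-0 and 103, 104 and 112 in the libraries labelled nsra/b, and the log2 fold change was 1.10 at an adjusted p of 4.03e-07 by edgeR.

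Levels were compared between the 2 genes only per kilobase of exon, with all annotated exons of a gene merged. A shorter NSRb transcript as its length would give higher levels for NSRb. NSRa had 9.77, 10.6 and 9.65 CPM per kb in Col-0 and 127, 127 and 123 CPM per kb in the libraries labelled nsra/b. This placed it at percentile 60.0 of the 23476 protein-coding genes with any count in Col-0 and at percentile 97.3 of 23440 such genes in the libraries labelled nsra/b. NSRb had 0.232, 0.283 and 0.303 CPM per kb in Col-0 and 1.15, 0.934 and 1.08 CPM per kb in the libraries labelled nsra/b, percentiles 13.3 and 22.0. NSRb in the libraries labelled nsra/b thus stayed below NSRa in Col-0 on this scale, and the median protein-coding gene had 6.73 CPM per kb in Col-0 and 6.79 CPM per kb in the libraries labelled nsra/b.

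The excess of NSRa over NSRb was greater in each library labelled nsra/b than in any Col-0 library. Per exon length the ratio of NSRa to NSRb was 40.9, 36.8 and 31.2 in Col-0 and 110, 136 and 114 in the libraries labelled nsra/b. On the log2 scale of counts with 0.5 added, the ratio was 4.32 ± 0.195 (SD, n = 3) in Col-0 and 6.05 ± 0.160 (SD, n = 3) in the libraries labelled nsra/b, a difference of 1.73 (SE 0.146) or 3.31-fold, with an exact two-sided permutation p of 0.1, the smallest that 3 against 3 libraries allow.

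The features whose pattern over the 6 libraries was most like that of each gene were ranked by the root mean square difference of log2 CPM, with each gene's own Col-0 mean subtracted. The nearest to NSRa was the pseudogene AT5G35935, counted 109, 117 and 102 times in Col-0 and 521, 590 and 547 times in the libraries labelled nsra/b, at a root mean square difference of 0.913. The next were AT2G18190 at 0.965, with 0, 3 and 0 counts against 9, 14 and 13, and the de novo locus XLOC_030975 at 0.990. AT2G18190 had at most 3 counts in each Col-0 library, so no fold is given for it. Features lay closer to NSRb. SYN1 (AT5G05490), a meiotic cohesin subunit, was nearest at 0.208, with counts of 19, 19 and 22 against 70, 60 and 67. ASCO (AT1G67105) followed at 0.218 and the mitochondrial small heat shock protein gene HSP23.6-MITO (AT4G25200) at 0.222, with 17, 18 and 22 counts against 54, 80 and 71.

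Of the genes that flank NSRa and NSRb, some rose by far less than the members. The 5 nearest annotated genes on each side of NSRa comprised 10 genes, 7 of which were tested, and 3 of these were called higher and 0 lower by edgeR's quasi-likelihood test, against 5.28% and 3.58% of all tested features. At an unadjusted p under 0.05 edgeR gave 4 higher and 0 lower, and DESeq2 called 3 higher and 0 lower. The median log2 fold change of the tested neighbours of NSRa was 0.17. EXT4 (AT1G76930), which encodes an extensin of the cell wall and lies 5197 nt from NSRa, was counted 7184, 8589 and 8024 times in Col-0 and 9116, 11215 and 10457 times in the libraries labelled nsra/b, a log2 fold change of 0.42 (SE 0.0243, adjusted p 6.36e-15 by edgeR). AT1G76955 and AT1G76960, which encode uncharacterized proteins, had log2 fold changes of 0.59 (adjusted p 0.000175) and 0.90 (adjusted p 5.05e-16) by edgeR. Around NSRb, 3 of 10 neighbours were tested and EXT3 (AT1G21310), another extensin gene, was called higher, at a log2 fold change of 0.09 (adjusted p 0.00758 by edgeR), and the others were not called. DESeq2 did not call EXT3, at an adjusted p of 0.01. The 7 untested neighbours of NSRb had 0 counts in every library.

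**Figure D4:**
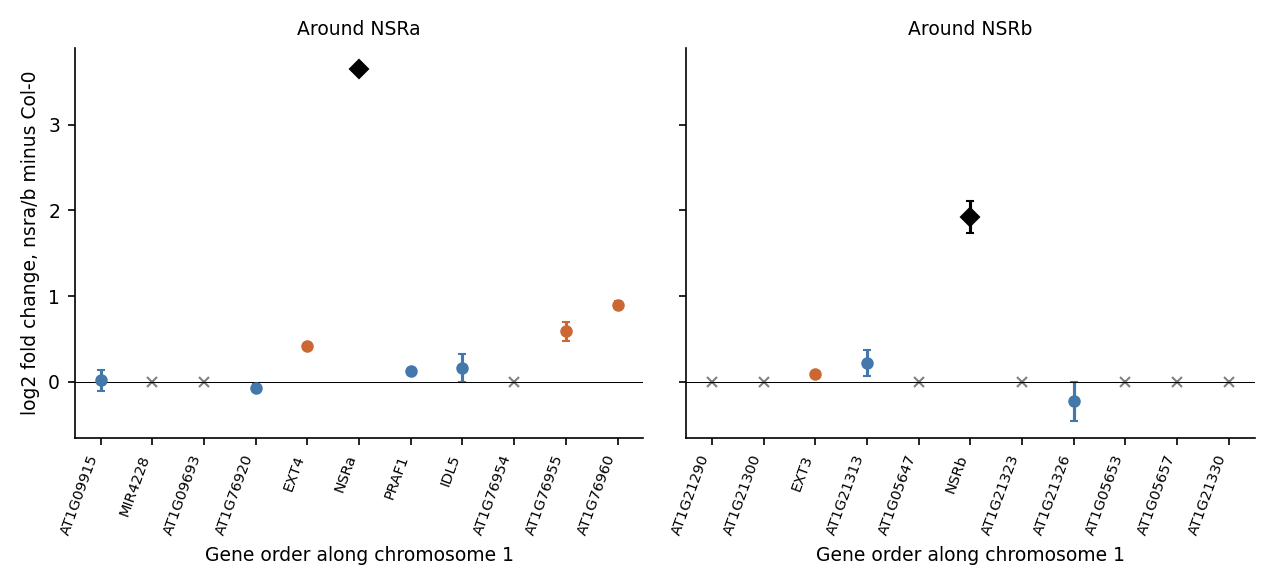
Log2 fold changes (nsra/b minus Col-0) of the annotated genes nearest to NSRa (left) and NSRb (right), in order along chromosome 1, with error bars of 1 SE. Diamonds are NSRa and NSRb at 3.65 and 1.93, orange points are called genes, blue points are tested genes not called, crosses at 0 are genes that were not tested, and no tested neighbour exceeds 0.90.

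The lists of other genes were read beside the members. The list called SR proteins here holds serine and arginine rich splicing factors of the nuclear speckle, SR45 and SR45a among them. All 20 listed were tested. By edgeR's quasi-likelihood test 0 were called higher and 2 lower, which is also the count at an unadjusted p under 0.05 by edgeR in each direction, while DESeq2 called 0 higher and 1 lower. Over all tested features 5.28% were called higher and 3.58% lower. The log2 fold changes of the SR proteins ran from −0.18 to 0.25 with a median of −0.03. The members called lower were RS31 (AT3G61860), at −0.18 (SE 0.0337, adjusted p 0.000201), and RS41 (AT5G52040), at −0.12 (SE 0.0286, adjusted p 0.00363 by edgeR), and the call for RS41 was lost with DESeq2 at an adjusted p of 0.0183. None of the SR proteins moved on the scale of NSRa or NSRb.

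A further list of 7 genes held ASCO, FPA and FLC, which were chosen with their values in these libraries known, and 4 other genes of flowering control or splicing. Of the 7 tested, 2 were called higher, 1 lower and 4 neither by edgeR, beside 5.28% and 3.58% of all tested features, with a median log2 fold change of −0.06. ASCO, the long non-coding RNA bound by NSRs, was counted 23, 33 and 51 times in Col-0 and 107, 129 and 127 times in the libraries labelled nsra/b, a log2 fold change of 1.81 (SE 0.163, adjusted p 4.69e-10 by edgeR). FPA (AT2G43410), an RNA-binding regulator of polyadenylation and flowering, had 1208, 1527 and 1476 counts against 2357, 2756 and 2675, a log2 fold change of 0.94 (SE 0.0330, adjusted p 8.06e-21 by edgeR). Both rose with NSRa and NSRb. FLC (AT5G10140), the MADS-box repressor of flowering, fell from 75, 102 and 70 counts to 8, 7 and 7, a log2 fold change of −3.42 (SE 0.244, adjusted p 1.60e-12 by edgeR). The others, FCA, which acts with FPA in the autonomous flowering pathway, GRP7, PRP8a and an SmD1 gene (AT3G07590), had log2 fold changes of −0.08, 0.08, −0.06 and −0.25. Their adjusted p-values were 0.377, 0.0127, 0.0922 and 0.0534 by edgeR, so that GRP7 would be called at a threshold of 0.05.

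**Figure D5:**
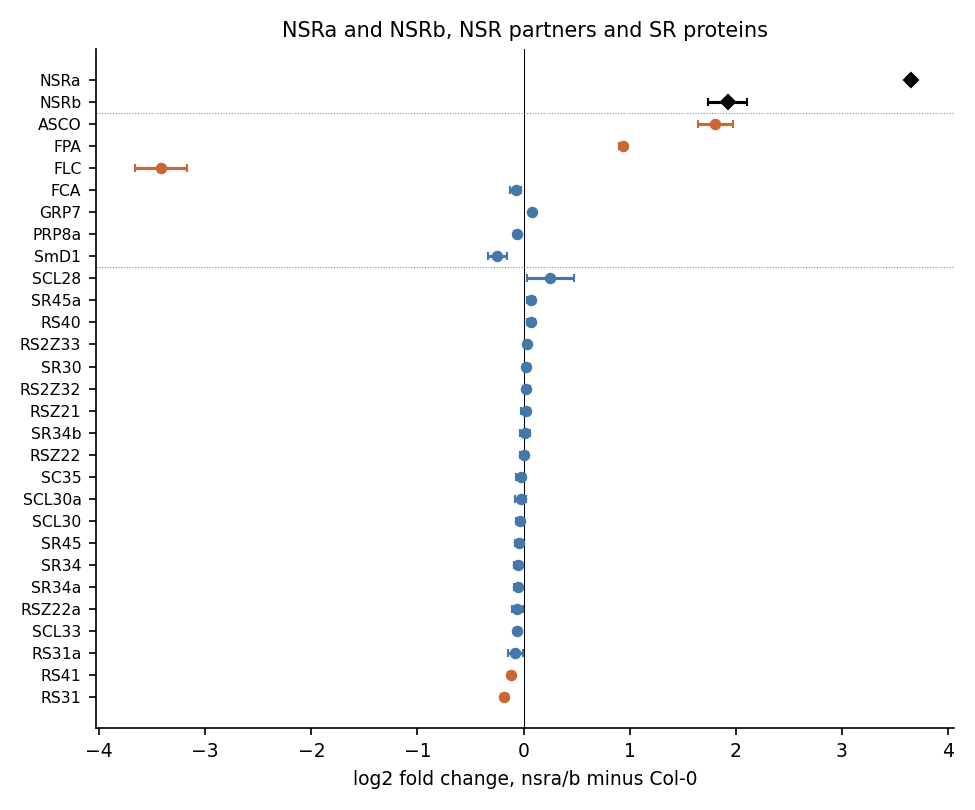
Log2 fold changes (nsra/b minus Col-0, error bars of 1 SE) of NSRa and NSRb (diamonds), the 7 genes of the ASCO, FPA and FLC list (NSR partners in the title) and the 20 SR proteins, with called genes in orange and the others in blue. ASCO, at 1.81, lies near NSRb, FLC lies at −3.42, and the SR proteins lie between −0.18 and 0.25.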

How the data were processed

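The authors deposited raw read counts per gene for 44200 features, of which 6393 are loci that they assembled de novo. Per the study's methods, reads were aligned with tophat with 1 alignment kept per read and counted strand-specifically with summarizeOverlaps (Union mode). The annotation used for counting is not given in the sources used here. The labels name TAIR10. Counts were analysed here as deposited with edgeR 4.0.16 in R 4.3.3, using TMM factors, the filterByExpr filter (minimum count 10, minimum total 15), the quasi-likelihood test of genotype with no covariate, and p-values adjusted after Benjamini-Hochberg over all 21606 tested features, called at an adjusted p under 0.01. The procedure was tested on simulated data. DESeq2 1.42.0, the study's own tool, and limma 3.58.1 (voom) served as alternatives. Standard errors were obtained from the F statistic, as the size of the log2 fold change divided by its root. Poisson intervals are exact at 95% and cover counting error only.

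Gene positions came from the RefSeq TAIR10.1 annotation, whose build name differs from that in the labels, and 37512 identifiers matched it. Proteins were translated from its coding sequences and compared with BLAST+ 2.17.0 at an expectation value under 1e-10, because no separate protein table was used here. The genes named were the 2 members, their antisense loci, the 3 tested features most like each, the called list members with the largest absolute log2 fold change (up to 4 per list) and the closest related protein. FCA, GRP7, PRP8a and SmD1 were named after their values were seen, as were the marker genes that lead their lists. The lists were the SR proteins, the 7 genes with ASCO, FPA and FLC, the neighbours and the related proteins. The members and lists were chosen with earlier results of these data known. Other settings tried were size factors of DESeq2, library size only, no filter, 1 CPM in at least 3 libraries, Bonferroni adjustment, a threshold of 0.05, a biological coefficient of variation fixed at 0.1 with the likelihood ratio test, a replicate block, and leaving out each library in turn.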

Additional observations from a re-analysis of the deposited data

How the results depend on the processing

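NSRa and NSRb kept their direction and their call under every alternative run. With each library left out in turn, the log2 fold change of NSRa ran from 3.62 to 3.70 (highest adjusted p 4.88e-30 by edgeR) and that of NSRb from 1.84 to 2.01 (highest adjusted p 2.08e-07 by edgeR). With the replicate number as a block they were 3.65 and 1.92, and the block called 2093 genes. Same-numbered libraries did not deviate together (r of −0.012, 0.025 and 0.056 across genes, which are not independent replicates), so the numbers were not taken as pairs. The blocked difference between the genes was 1.73, where the smallest possible exact permutation p is 0.25. The difference with a library left out ran from 1.62 to 1.82, and with other pseudocounts reached 1.90. The per-length ratio was retried with the longest transcript, with the longest coding sequence and with a library left out. It ran from 33.3 to 38.8 in Col-0 and from 110 to 125 in the libraries labelled nsra/b. Shorter annotated transcripts of NSRb were not tried as its length, and they would give a lower ratio.

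The count of called genes, 1914, moved more. It was 1087 with DESeq2, 494 with Bonferroni adjustment, 203 with the fixed coefficient of variation and 3217 at an adjusted p under 0.05, and 1290 to 1859 with a library left out. The SR protein count, 2 in all, became 1 with DESeq2, 0 with Bonferroni adjustment and 0 with the fixed coefficient, where 0 had an unadjusted p under 0.05 by its likelihood ratio test, and 1 to 2 with a library left out. RS41 lost its call without any 1 library other than nsra/b replicate 2, at an adjusted p of 0.0112 to 0.0196 by edgeR and a log2 fold change of −0.11 to −0.12. The count for the list with ASCO, FPA and FLC was 3 or 4 under every alternative. The neighbour count, 4, became 2 with Bonferroni adjustment, 1 with the fixed coefficient, and 3 to 4 with a library left out. EXT3 lost its call without replicate 2 or 3 of either genotype, at an adjusted p of 0.0207 to 0.13 by edgeR and a log2 fold change of 0.07 to 0.09. The counts of NSRb limit the precision of its fold change, since 1 Col-0 library held 17 counts.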
